A study of Mus musculus with 38 samples.

Results

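The first day of the primed to naive transition (PNT) was examined in mouse kEpiSC, by setting 2 RNA libraries made after a day in the medium iCD1 (PNT-D1) against 2 libraries of the starting cells (kEpiSC), 4 of the 38 RNA samples of the series. Members were taken from the sample titles alone, without reference to expression. kEpiSC are epiblast stem cells (EpiSC) of a stable line that overexpresses Klf4. They also carry a reporter in which GFP follows Oct4 in the naive state, and they were kept in EpiSC medium with Activin A and bFGF. In the published methods EpiSC grew on feeders in KFN medium or without feeders in FN medium. Those methods do not say which served for the kEpiSC libraries. The PNT-D1 cells share the transgene and the reporter. For the transition the cells were dissociated with Accutase, replated as single cells in FN medium with the kinase inhibitor Y-27632, and a day later changed to iCD1, a chemically defined medium first made for reprogramming of somatic cells, whose recipe is not given in the sources used here. Replating, cell density, any feeders in the starting culture, Y-27632, the loss of Activin A and bFGF and the content of iCD1 therefore cannot be told apart in this comparison. Day 1 libraries with the kinase inhibitor SP600125 (PNT-JNKi-D1, n = 2), PNT-D2 and PNT-D3 (n = 2 each) and the converted cells (kiPSC, n = 2) served only to describe what happened next. The replicates are called biological, with no word on how the cultures were kept apart, so the p-values weigh a difference against the scatter of the libraries at hand, which may be technical.

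The naive state, held by embryonic stem cells (ESC), is that of the epiblast before it implants. The primed state of EpiSC is that of the epiblast afterwards, when Activin/NODAL and FGF signals hold it short of gastrulation. Where WNT signalling is strong, the posterior epiblast turns on T and Mixl1, forms the primitive streak and gives rise to mesoderm. Cells at its rear then switch on Cdx and Hox genes in order along each cluster. Klf4 is a transcription factor of the naive network, and its reads here come from the transgene and the endogenous gene, which cannot be told apart.

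The PNT-D1 libraries held 7.941 and 8.456 M expected counts, and the kEpiSC libraries 15.945 and 15.755 M (M, mega), with 17570 to 17716 and 17813 to 17836 genes detected. All 34 other libraries were shallower than kEpiSC (2.165 to 8.964 M). Levels are given in CPM, counts scaled by library size and TMM factor to a common total. Fold changes are log2 values of PNT-D1 over kEpiSC with their standard error from edgeR's quasi-likelihood fit, and a gene is called where its Benjamini-Hochberg adjusted p over all 14892 genes tested is under 0.05.

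Klf4, the gene that the line was made to express, was present throughout. It stood at 142 and 131 CPM in PNT-D1, against 71.9 and 102 CPM in kEpiSC. The groups did not overlap, and the difference (0.65 ± 0.16, adjusted p = 0.0034 in edgeR) was lost without kEpiSC replicate 1 (0.43, adjusted p = 0.064). EpiSC without the transgene averaged 1.66 CPM.

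The change from kEpiSC to PNT-D1 was broad, and it can take in the day after replating as well as the day in iCD1. Of the 14892 genes, 6893 were called (46.3%), 3459 of them higher in PNT-D1 (23.2%) and 3434 lower (23.1%). At 2-fold or more these were 1897 higher (12.7%) and 1770 lower (11.9%), at 16-fold or more 342 and 118. The median gene did not shift (0.00), and called genes had a median of 1.12 where higher and -1.03 where lower. The extremes were unequal, since the 16-fold class held more higher genes than lower ones, on fitted values that depend on a prior count where a group has almost no reads.

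**Figure D1:**
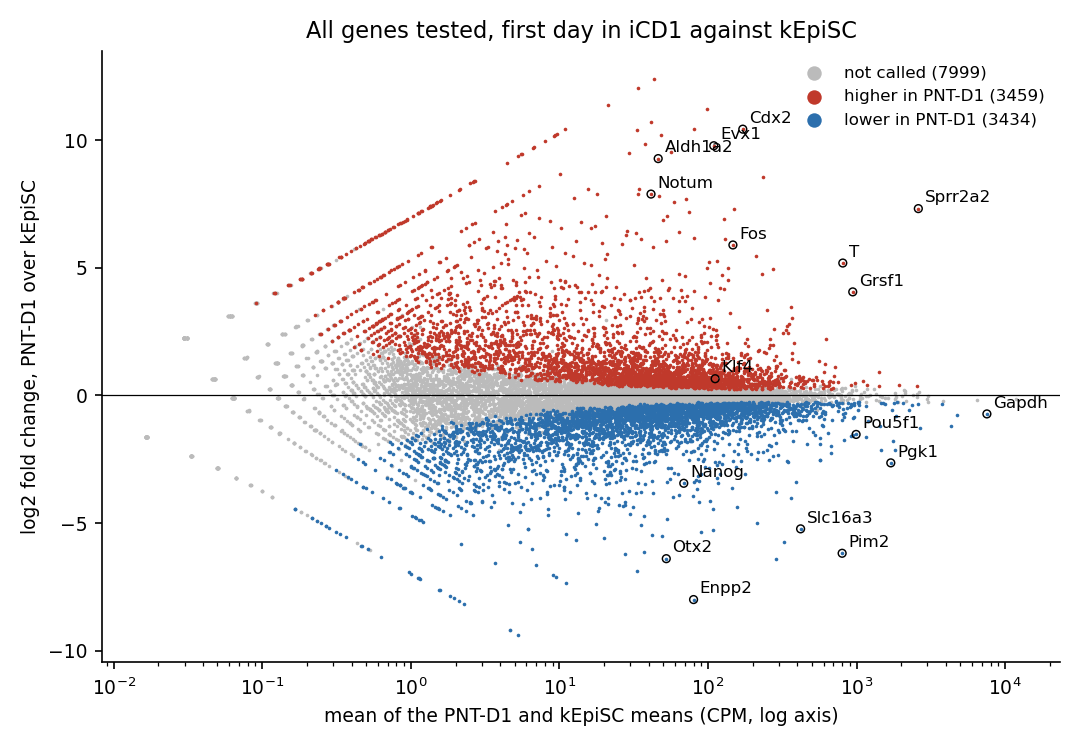
Log2 fold change of PNT-D1 over kEpiSC (vertical axis) against the mean level of both groups (CPM, logarithmic axis) for the 14892 genes tested, each point a gene, with 3459 called higher in red, 3434 called lower in blue and the rest in grey. T, Evx1 and Cdx2 lie far above 0 and Pim2, Slc16a3 and Otx2 far below, while Klf4 and Gapdh lie close to 0; the straight rows of points at the left are genes with almost no counts in a group.

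Of 19 WNT target genes tested, 16 were higher and 1 was lower, with a median of 2.99 against 0.00 over all genes. In this list and those that follow, members near 0 in kEpiSC could pass the filter only through a group that expressed them, so the counts describe the lists and are not support. Sp5, a transcription factor gene under direct WNT control, stood at 410 and 417 CPM in PNT-D1, against 11.2 and 7.85 CPM in kEpiSC (5.44 ± 0.44, adjusted p = 1.13e-07 in edgeR). Axin2, a feedback inhibitor of the pathway, reached 276 and 245 CPM in PNT-D1, against 12.3 and 10.3 CPM in kEpiSC (4.52 ± 0.42). The replicates of each group lay close together and far from the other group. Notum, which encodes a secreted enzyme that inactivates WNT ligands, stood at 80.2 and 84.7 CPM in PNT-D1, against 0.33 and 0.34 CPM in kEpiSC (7.89 ± 0.45). Nkd1, another feedback inhibitor, was at 113 and 105 CPM in PNT-D1, against 8.71 and 6.77 CPM in kEpiSC (3.81 ± 0.24). Thus 3 inhibitors of the pathway were among the genes that rose. Cdx2, a posterior homeobox gene, was at 324 and 363 CPM in PNT-D1, against 0.33 and 0.13 CPM in kEpiSC (10.43 ± 0.53, or 11.16 without kEpiSC replicate 1). Its relative Cdx1 had 197 CPM in both PNT-D1 libraries and 2 counts in all of kEpiSC, a ratio of 2960 (95% counting interval 819 to 24455). The TCF/LEF factors that carry the signal to DNA moved less. Lef1 was at 143 and 147 CPM in PNT-D1, against 49.5 and 42.8 CPM in kEpiSC (1.65 ± 0.34), a call that was lost in DESeq2 (adjusted p = 0.080) and in limma on log2(TPM + 0.1) (adjusted p = 0.21), and Tcf7 rose by 0.74 ± 0.13. The exception was Lgr5, a receptor for R-spondins and often used as a WNT target, with 1.12 and 1.42 CPM in PNT-D1, against 6.93 and 6.10 CPM in kEpiSC (-2.34 ± 0.58), a call that was lost in limma on log2 TPM (adjusted p = 0.062 and 0.16 with pseudocounts of 1 and 0.1). Dkk1 (-0.36 ± 0.33) and Kremen1 (0.05 ± 0.19) missed the threshold.

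The promoter of Sp5 is shown because it held a TCF/LEF letter pattern close to the start. It lies at chr2:70474779-70474865 (GRCm38, plus strand, sequence from RefSeq), upstream of the first exon, with CTTTGAT in capitals.
Sp5: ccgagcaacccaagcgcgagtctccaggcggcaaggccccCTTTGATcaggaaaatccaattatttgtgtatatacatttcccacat
CTTTGAT was found, on either strand of the 250 bases before the start, in 2 of 13 WNT targets with a promoter in the table (15.4%), in 2.8% of the 11147 tested genes with one and in 3.7% of all 27025 promoters. A match is only a match of letters.

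Genes of WNT ligands and receptors were higher in 9 of 21 cases and lower in 4, where 23.2% and 23.1% of all genes were. No more is read from the lower count. Wnt3a, a canonical ligand of the streak and tail bud, was at 140 and 144 CPM in PNT-D1, against 0.99 and 0.34 CPM in kEpiSC (7.71 ± 0.56, or 8.66 without kEpiSC replicate 1). Wnt5a, a ligand of the non-canonical branch, was at 70.4 and 58.6 CPM in PNT-D1, against 0.66 and 0.87 CPM in kEpiSC (6.37 ± 0.21). Rspo3, a secreted enhancer of WNT signalling, was at 82.6 and 65.6 CPM in PNT-D1, against 2.71 and 3.42 CPM in kEpiSC (4.59 ± 0.29). All 3 were below 4 CPM in kEpiSC. The receptor gene Fzd10 rose by 6.12 ± 0.28 to 277 and 233 CPM in PNT-D1, against 4.49 and 2.82 CPM in kEpiSC. Fzd1 (1.36) and Frzb (4.26) were also higher. The 4 lower members were the receptor genes Fzd2 (-1.28), Fzd5 (-1.46) and Fzd7 (-1.42), and Sfrp1 (-0.99). Wnt3, the ligand that starts the streak in the embryo, did not pass the test, with 9.5 and 8.17 CPM in PNT-D1, against 8.91 and 8.25 CPM in kEpiSC (0.04 ± 0.54).

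Primitive streak and early mesoderm genes formed the list with the highest median (3.82), with 15 of 22 members higher and 3 lower. T, the T-box factor of streak and notochord (mm10 chromosome 17, plus strand), held 1542 and 1606 CPM in PNT-D1, against 48.0 and 38.5 CPM in kEpiSC (5.19 ± 0.19, adjusted p = 4.90e-11 in edgeR). Per transcript length, T averaged 2047 TPM (transcripts of each gene scaled for its length and to a fixed total) in PNT-D1, above Pou5f1 with 757 TPM in the same libraries. In kEpiSC this order was the reverse, with 47.3 TPM for T and 2010 TPM for Pou5f1. Evx1, a homeobox gene of the posterior streak, was at 207 and 231 CPM in PNT-D1, against 0.26 and 0.20 CPM in kEpiSC (9.78 ± 0.32). Its antisense neighbour Evx1os was at 84.0 and 80.3 CPM in PNT-D1 with 1 count in kEpiSC, and reads of the pair may be shared, since the sources used here do not say whether strand was kept. Tbx6, which directs cells to paraxial mesoderm, was at 79.3 and 88.1 CPM in PNT-D1, against 1.32 and 1.61 CPM in kEpiSC (5.82 ± 0.50). Msgn1, a regulator of presomitic mesoderm, was at 68.7 and 63.8 CPM in PNT-D1 and had 1 count in all of kEpiSC (ratio 1991, 95% counting interval 357 to 78698). Mixl1 stood at 61.5 CPM in each PNT-D1 library, against 2.64 and 0.87 CPM in kEpiSC (5.11 ± 0.43, or 6.12 without kEpiSC replicate 1). Nkx1-2, a marker of progenitors shared by spinal cord and mesoderm, was at 447 CPM in both PNT-D1 libraries, against 23.0 and 10.2 CPM in kEpiSC (4.75 ± 0.42, or 5.46 without kEpiSC replicate 1).

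Other members of the streak list were divided. Lhx1, a homeobox gene of anterior streak and node, was at 54.4 and 60.5 CPM in PNT-D1, against 19.3 and 11.3 CPM in kEpiSC (1.91 ± 0.26). Its call was lost with all 38 libraries in one fit (adjusted p = 0.069 in edgeR). Eomes, the T-box factor of early streak and endoderm, fell to 5.0 and 5.68 CPM in PNT-D1, against 44.7 and 37.6 CPM in kEpiSC (-2.94 ± 0.46). Gsc, a marker of the organizer, was at 0.37 and 0.24 CPM in PNT-D1, against 6.33 and 5.03 CPM in kEpiSC (-4.15 ± 0.68). Gata6 also fell (-2.19), but the call was lost in 6 of 14 alternatives, with -1.55 without kEpiSC replicate 1. Foxa2, a gene of node and endoderm, was higher at 28.4 and 42.0 CPM in PNT-D1, against 17.3 and 10.6 CPM in kEpiSC (1.34 ± 0.31), though not without kEpiSC replicate 2 (adjusted p = 0.052 in edgeR) or without PNT-D1 replicate 2 (adjusted p = 0.050 in edgeR). Sox17, of definitive endoderm, had 1.75 and 2.96 CPM in PNT-D1, against 7.98 and 4.96 CPM in kEpiSC, and was not called, but was lower in 3 of 14 alternatives. Mesp1, of cardiac mesoderm, had 1.62 and 1.54 CPM in PNT-D1, against 0.20 and 0.13 CPM in kEpiSC. It was not called (adjusted p = 0.080 in edgeR) but was higher in 6 of 14 alternatives, DESeq2 among them (adjusted p = 0.019).

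**Figure D2:**
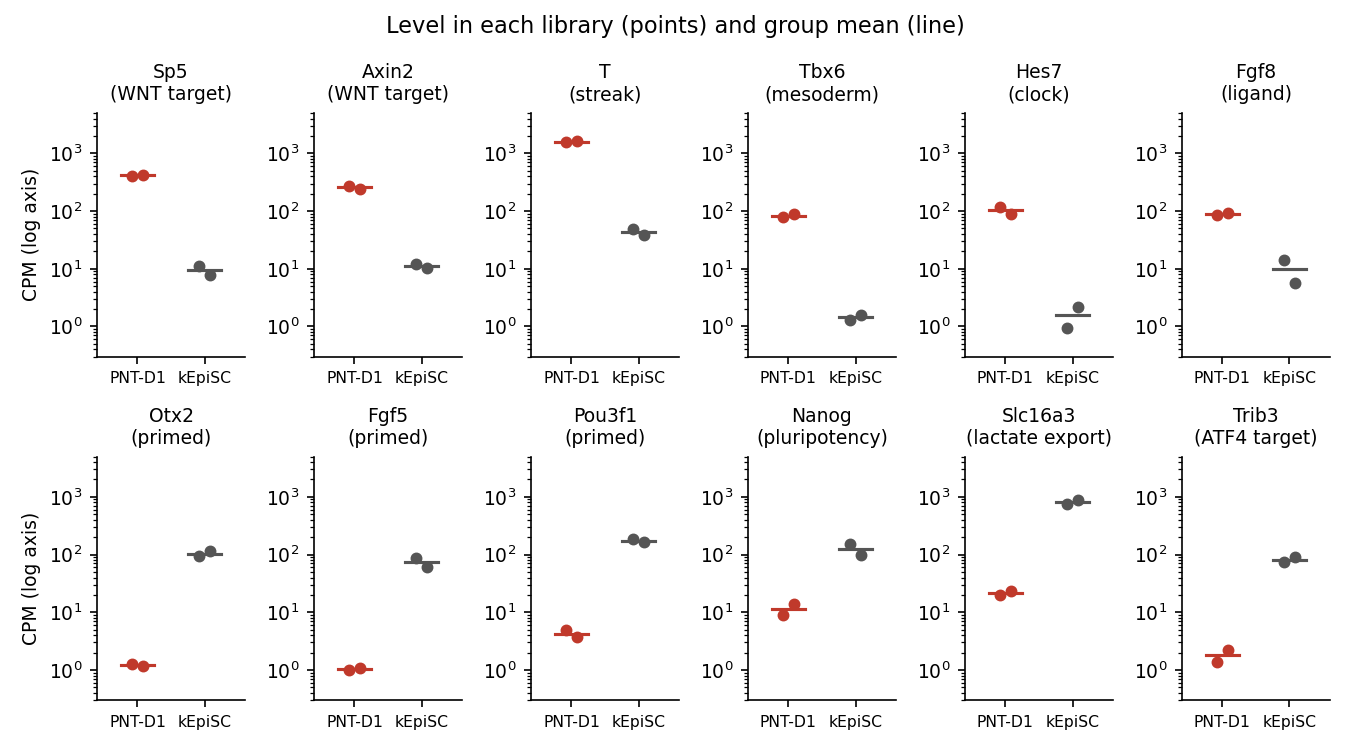
Level of 12 genes in each library (CPM, logarithmic axis), with points for the 2 PNT-D1 libraries in red at the left of each panel and the 2 kEpiSC libraries in grey at the right, and a line at the mean. In the first 6 panels both PNT-D1 libraries lie above both kEpiSC libraries, as for T (1542 and 1606 CPM against 48.0 and 38.5 CPM), and in the last 6 panels both lie below.

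Genes of the segmentation clock, the NOTCH-driven oscillator of presomitic mesoderm, were among the risers. Of 16 NOTCH genes, 7 were higher and 3 lower, with a median of 0.74. The ligand gene Dll1 was at 290 and 223 CPM in PNT-D1, against 2.97 and 1.27 CPM in kEpiSC (6.90 ± 0.58, or 7.64 without kEpiSC replicate 1). Hes7, the clock's repressor, was at 116 and 90.2 CPM in PNT-D1, against 0.92 and 2.21 CPM in kEpiSC (6.03 ± 0.63, or 6.78 without kEpiSC replicate 2). Dll3, a divergent ligand that acts in the clock, rose by 4.11 ± 0.33, while the ligand gene Jag2 fell to 8.87 and 11 CPM in PNT-D1, against 62.4 and 66.6 CPM in kEpiSC (-2.69 ± 0.26). In the FGF list 5 of 16 members were higher and 4 lower, where 23.2% and 23.1% of all genes were, and no more is read from the counts. Fgf8, expressed in streak and tail bud, was at 86.5 and 94.3 CPM in PNT-D1, against 14 and 5.57 CPM in kEpiSC (3.20 ± 0.33, or 4.02 without kEpiSC replicate 1).

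Genes that make and bind retinoic acid, a posteriorizing signal, also rose (10 of 17 higher, 1 lower, median 1.87). Aldh1a2, the enzyme that makes retinoic acid in mesoderm, was at 99.8 and 84.9 CPM in PNT-D1, against 0.20 and 0.07 CPM in kEpiSC (9.28 ± 0.72, or 10.11 without kEpiSC replicate 1). Crabp2, a carrier of retinoic acid in the cell, was at 189 and 193 CPM in PNT-D1, against 6.73 and 5.37 CPM in kEpiSC (4.98 ± 0.19). Stra6, a transporter for retinol, was at 42.9 and 35.9 CPM in PNT-D1, against 2.38 and 1.74 CPM in kEpiSC (4.24 ± 0.29). Cyp26a1, an enzyme that breaks retinoic acid down, was not called (14.6 and 22.5 CPM in PNT-D1, against 14.7 and 16.2 CPM in kEpiSC). Cyp26b1, another such enzyme, was called higher (fitted value 3.67, adjusted p = 0.0019 in edgeR).

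Hox genes, which were singled out after their values were seen, covered most of each cluster. Of the 38 analysed here, kEpiSC had 65 counts in all, with 15 genes at 0. Of the 33 that passed the filter, which they could do through the later days, 30 were higher in PNT-D1 and 0 lower. Levels per length differed by class, as the map of Hox genes shows: genes 1 to 5 had a median of 24.9 TPM in PNT-D1, genes 6 to 9 had 5.13 TPM and genes 10 to 13 had 0.10 TPM. The order did not hold gene by gene, since Hoxb8 (101 TPM) stood above Hoxb5 (19.6 TPM). Hoxb1 was the highest of these at 155 TPM, against 0.085 TPM in kEpiSC, and Hoxb2 followed at 129 TPM, against 0.145 TPM in kEpiSC. Hoxa3 had 86.5 and 87.5 CPM in PNT-D1 and no count in kEpiSC, which makes it at least 872-fold higher with 3 counts allowed over the kEpiSC group. On the same basis Hoxb4 was at least 425-fold higher (44.4 and 40.6 CPM), Hoxc4 at least 219-fold (25.9 and 18.0 CPM) and Hoxb5 at least 194-fold (17.1 and 21.6 CPM). Hoxaas3, antisense to Hoxa3, had 65.2 and 69.3 CPM in PNT-D1 and no count in kEpiSC, and the reads of both genes may be shared. Calls in the last class were weak: Hoxa10, Hoxb13 and Hoxd13 lost theirs in 5, 5 and 4 alternatives. Hoxc10, with 6 counts in PNT-D1, also lost its call in some alternatives. So did Hoxa6 and Hoxc9 of genes 6 to 9, with 6 and 10 counts in PNT-D1.

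**Figure D3:**
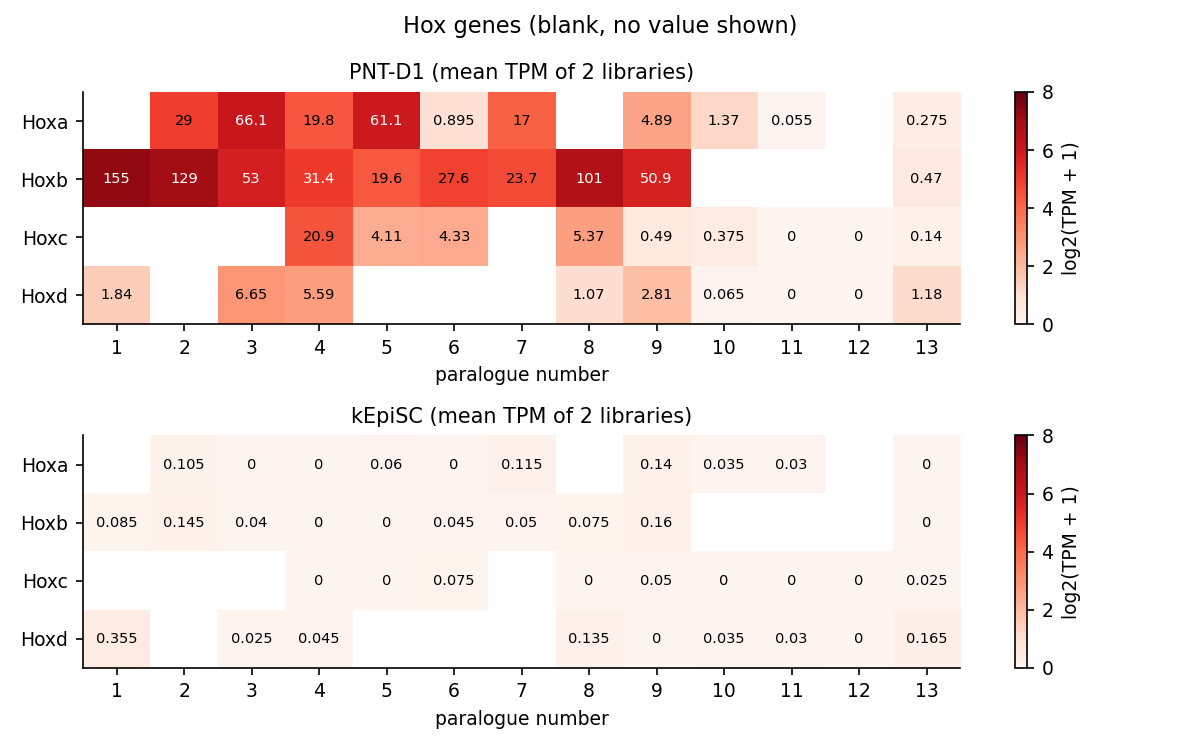
Mean TPM of 2 libraries for the 38 Hox genes analysed here, by cluster (rows) and paralogue number (columns), in PNT-D1 above and kEpiSC below, with colour on a log2(TPM + 1) scale and the TPM printed in each cell. In PNT-D1 the Hoxb row is dark from gene 1 to gene 9, with 155 TPM for Hoxb1, and in kEpiSC no cell shown exceeds 0.355 TPM.

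Genes of the epithelial to mesenchymal change, by which streak cells leave the epiblast, rose in 10 of 14 cases and none fell (median 1.67). Snai1, the repressor that drives it, was at 64.7 and 56.3 CPM in PNT-D1, against 4.29 and 4.16 CPM in kEpiSC (3.83 ± 0.33). Zeb2, a second such repressor, rose by 3.34 ± 0.23, and Cdh2, N-cadherin, was at 288 and 276 CPM in PNT-D1, against 44.5 and 43.5 CPM in kEpiSC (2.68 ± 0.11). Epithelial genes did not mirror this, with 5 of 20 higher and 8 lower. Cdh1, E-cadherin, was at 582 and 644 CPM in PNT-D1, against 739 and 714 CPM in kEpiSC, and was not called (-0.24 ± 0.17). Dsp, desmoplakin, rose to 437 and 477 CPM in PNT-D1, against 52.0 and 37.9 CPM in kEpiSC (3.35 ± 0.34), and Cldn7 fell (-2.95 ± 0.47).

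Markers of other cell types moved as well. Summed fibroblast markers came to 291 to 297 CPM in PNT-D1, against 47.7 to 56.5 CPM in kEpiSC, with 6 of 12 higher and 1 lower. The largest changes were those of Pdgfra (83.7 and 56.6 CPM in PNT-D1, against 1.12 and 0.87 CPM in kEpiSC) and Pdgfrb (67.5 and 82.7 CPM, against 4.16 and 4.36 CPM), receptors that early mesoderm also expresses. Fbln2 (3.32), Dcn (2.52), Col1a2 (2.13, or 2.73 without kEpiSC replicate 1) and Twist2 (1.62), of matrix and mesenchyme, were called higher too. The call of Dcn was lost without kEpiSC replicate 2 (2.27), and that of Twist2 without any 1 of the 4 libraries (1.33 to 2.00). Postn was lower, with 3 counts in PNT-D1 and 67 in kEpiSC, a ratio of kEpiSC over PNT-D1 of 12.2 (95% counting interval 4.005 to 60.7). Col1a1 and Col3a1 were not called, although each was lower in 4 of 14 alternatives. Summed trophoblast markers came to 372 to 420 CPM in PNT-D1, against 56.1 to 65.9 CPM in kEpiSC, most of it Cdx2, with 5 of 9 higher and 4 lower. Tfap2c (4.73), Hand1 (3.80, or 4.76 without kEpiSC replicate 2), Elf5 (2.91) and Plac1 were the other higher ones, Plac1 with 13 counts in PNT-D1 and 3 in kEpiSC. Elf5 was no longer called without PNT-D1 replicate 1 (1.32) or kEpiSC replicate 2 (2.38) and reached 3.74 without kEpiSC replicate 1 and 3.66 without PNT-D1 replicate 2. Plac1 was not called without kEpiSC replicate 1 or without PNT-D1 replicate 2 (adjusted p = 0.056 and 0.060 in edgeR). Eomes, Ascl2 (-2.81), Krt7 (-1.34) and Gata3 (-2.30) were lower, Krt7 with the call lost without any 1 of the 4 libraries (-1.58 to -1.05) and Gata3 with it lost in 5 of 14 alternatives (-3.25 without PNT-D1 replicate 1 and -1.72 without PNT-D1 replicate 2). The placental genes Tpbpa and Prl3d1 were at 0 in both groups. Summed primitive endoderm markers came to 67.9 to 94.1 CPM in PNT-D1, against 18.7 to 28.2 CPM in kEpiSC, with Afp and Ttr at 0 in both. Only Pdgfra, with a mean of 70.2 CPM in PNT-D1, was higher among the 8 tested, Gata6 was lower and the median was -0.83. Blood and endothelial markers came to 131 to 134 CPM in PNT-D1, against 17.5 to 20.1 CPM in kEpiSC, with 4 of 9 higher, 2 lower, Ptprc at 0 in PNT-D1 and Lmo2 and Cdh5 the leading members. The part of other cell types in these results was not tested. In these bulk libraries a change in the share of a cell type and a change in RNA per cell cannot be told apart, here and in every result that follows.

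Primed pluripotency genes were more often lower than higher. Of 30 tested, 15 were lower, where 23.1% of all genes were, and 7 higher, near the 23.2% of all genes. The median was -0.80. The summed level of the primed genes was 3459 to 3461 CPM in PNT-D1, against 5115 to 5173 CPM in kEpiSC. In kEpiSC it was well above that of the naive genes given below. Otx2, a factor that sets the primed state, fell to 1.25 and 1.18 CPM in PNT-D1, against 93.7 and 114 CPM in kEpiSC (-6.39 ± 0.56, adjusted p = 2.88e-07 in edgeR). Fgf5, the classical marker of the state, fell to 1.00 and 1.07 CPM in PNT-D1, against 86.4 and 60.2 CPM in kEpiSC (-6.13 ± 0.62). Pou3f1, a POU factor of the late epiblast, was at 4.87 and 3.67 CPM in PNT-D1, against 187 and 162 CPM in kEpiSC (-5.35 ± 0.34). All 3 were below 5 CPM in PNT-D1. Foxd3, a repressor of the epiblast, was at 0.50 and 0.59 CPM in PNT-D1, against 69.1 and 63.5 CPM in kEpiSC (-6.88 ± 0.62). Enpp2, which encodes autotaxin, was at 0.75 and 0.47 CPM in PNT-D1, against 108 and 211 CPM in kEpiSC (-8.00 ± 0.46). Dnmt3b, the de novo DNA methyltransferase, was lower but still high, at 243 and 222 CPM in PNT-D1, against 1119 and 1097 CPM in kEpiSC (-2.25 ± 0.17). The members that rose included Nkx1-2, Fgf8, Cdh2 and Lef1, given above, which posterior epiblast also expresses.

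The NODAL pathway, which Activin A feeds in the starting medium, was lower in 9 of 19 members and higher in 3 (median -0.85). Tdgf1, the coreceptor for NODAL, fell to 5.25 and 7.93 CPM in PNT-D1, against 581 and 549 CPM in kEpiSC (-6.41 ± 0.57). Nodal was at 8.75 and 8.17 CPM in PNT-D1, against 43.6 and 27.8 CPM in kEpiSC (-2.08 ± 0.50). Cer1, a secreted NODAL inhibitor, had 2 counts in all of PNT-D1, against 28.9 and 15.5 CPM in kEpiSC, a ratio of 183 of kEpiSC over PNT-D1 (95% counting interval 50.5 to 1514). Lefty1 and Lefty2, which are direct NODAL targets, were not called. Lefty2 stood at 51.7 and 59.5 CPM in PNT-D1, against 64.6 and 55.0 CPM in kEpiSC. Fst, which encodes follistatin, an extracellular inhibitor of Activin, was at 547 and 517 CPM in PNT-D1, against 20.3 and 14.4 CPM in kEpiSC (4.94 ± 0.31).

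The core factors were uneven. Pou5f1 was at 521 and 503 CPM in PNT-D1, against 1448 and 1504 CPM in kEpiSC (-1.53 ± 0.24, adjusted p = 8.47e-05 in edgeR). Nanog was at 9.12 and 14 CPM in PNT-D1, against 152 and 99.5 CPM in kEpiSC (-3.44 ± 0.53). Sox2 was higher, at 129 and 186 CPM in PNT-D1, against 92.8 and 79.5 CPM in kEpiSC (0.87 ± 0.27), a call that was lost without kEpiSC replicate 2 (adjusted p = 0.11 in edgeR) or PNT-D1 replicate 2 (adjusted p = 0.17 in edgeR). Utf1, a chromatin factor of pluripotent cells, fell to 11.4 and 12.6 CPM in PNT-D1, against 609 and 660 CPM in kEpiSC (-5.73 ± 0.48).

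Naive genes were higher in 9 of 25 tested and lower in 4, where 23.2% and 23.1% of all genes were. The median was 1.00 against 0.00 over all genes, and no more is read from the lower count. At 2-fold or more 8 were higher and 3 lower, where 12.7% and 11.9% of all genes were. The summed level was 607 to 697 CPM in PNT-D1, against 496 to 507 CPM in kEpiSC. Its largest member was Gbx2 in PNT-D1 (mean 229 CPM) and Nanog in kEpiSC (mean 126 CPM), and it includes Klf4 reads from the transgene. The sum therefore does not show a rise of the list as a whole. Nanog, given above, and Tet2 (-1.61) were among the 4 lower members. Esrrb, a central naive factor, had 11.9 and 11.4 CPM in PNT-D1, against 4.82 and 6.77 CPM in kEpiSC. It missed the threshold (1.00 ± 0.52, adjusted p = 0.12 in edgeR), was called in 3 alternatives and averaged 651 CPM in kiPSC. Tfcp2l1 had 7.0 and 8.65 CPM in PNT-D1, against 8.25 and 10.8 CPM in kEpiSC, and was not called, and neither were Zfp42 and Dppa5a, both below 3 CPM in all 4 libraries. Klf2 was at 21.0 and 12.4 CPM in PNT-D1, against 3.76 and 4.90 CPM in kEpiSC (1.94 ± 0.37), with 334 CPM in kiPSC. Nr5a2, a nuclear receptor that can drive this transition, was at 3.62 and 7.11 CPM in PNT-D1, against 0.66 and 0.60 CPM in kEpiSC (3.06 ± 0.62), with 97.9 CPM in kiPSC. Gbx2 had the highest level of the list in PNT-D1, 257 and 200 CPM in PNT-D1, against 11.8 and 13.2 CPM in kEpiSC (4.19 ± 0.19). It is also a gene of the posterior epiblast, and kiPSC averaged 10.8 CPM. Dppa3, a germline and naive gene, had 1.75 and 2.37 CPM in PNT-D1 and no count in kEpiSC (at least 20.7-fold higher).

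Genes called on day 1 were set beside the difference between ESC (n = 5) and EpiSC (n = 4), which share no library with these 4. That comparison called 5699 genes (46.4%), with 24.2% of its 12275 genes higher in ESC and 22.2% lower. Of 1133 genes at least 2-fold higher in PNT-D1 and tested in both, 461 (40.7%) were higher in ESC and 225 (19.9%) lower. Of 1450 genes at least 2-fold lower in PNT-D1, 243 (16.8%) were higher in ESC and 555 (38.3%) lower. Over all 12233 genes tested in both, the shares were 24.1% and 22.2%. Genes near 0 in EpiSC passed the filter only where ESC expressed them, so the first share cannot be read as a rate. The libraries also differ in kind: annotated minus effective transcript length, which follows fragment length, was 73.48 to 73.49 in 4 of the 5 ESC libraries and 176 in the other, against 189 to 192 in EpiSC. Its part in these calls was not tested.

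**Figure D4:**
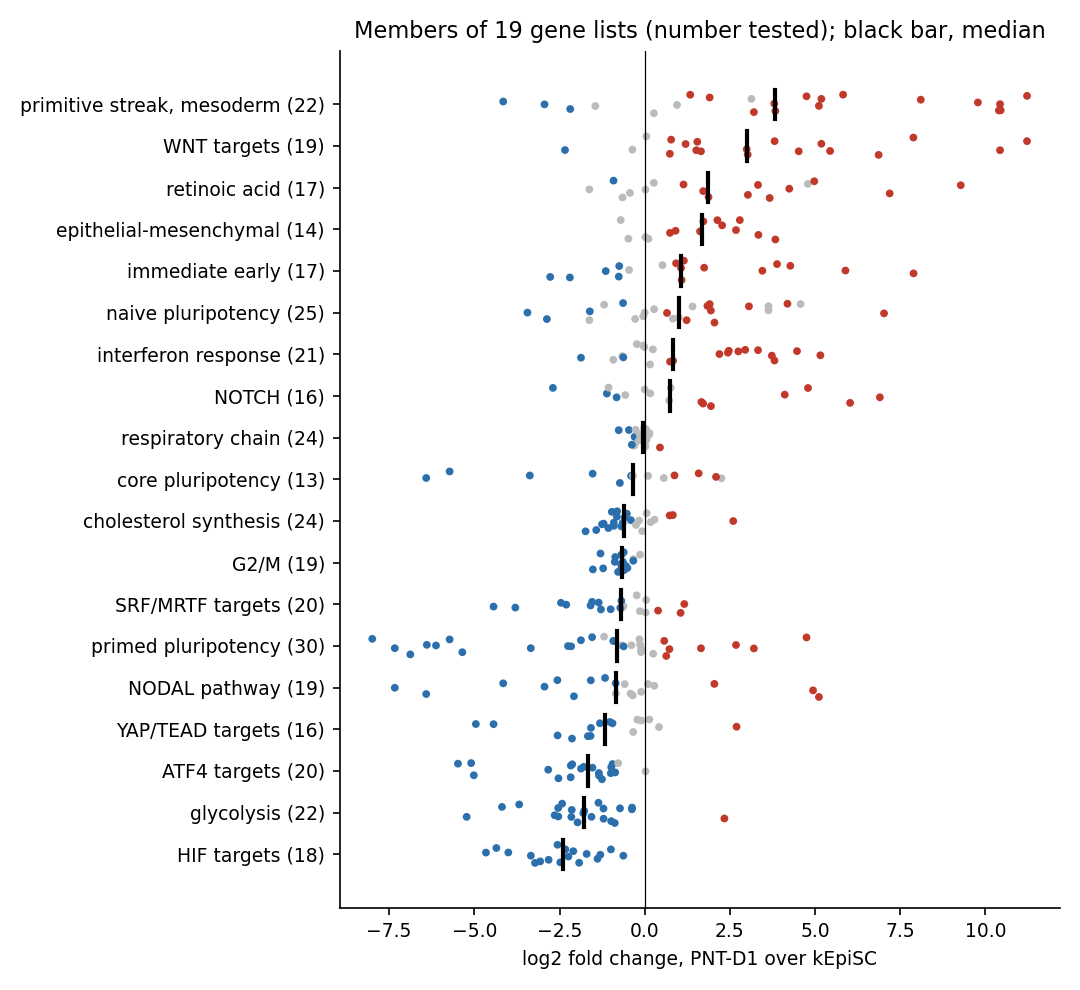
Log2 fold change of PNT-D1 over kEpiSC for the tested members of 19 gene lists, ordered by their median (black bar), with members called higher in red, called lower in blue and not called in grey; points for genes with almost no counts in a group are fitted values. Streak genes (median 3.82) and WNT targets (2.99) lie at the top, and ATF4 targets (-1.66), glycolysis (-1.79) and HIF targets (-2.40) at the bottom.

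The lists with the lowest medians were metabolic. All 18 tested targets of the hypoxia-inducible factor HIF were lower, with a median of -2.40, and 21 of 22 glycolysis genes were lower, with a median of -1.79. Car9 and Car12, the other HIF targets listed, were too low to test. Slc16a3, the exporter of lactate (mm10 chromosome 11, plus strand), fell to 19.9 and 23.8 CPM in PNT-D1, against 742 and 896 CPM in kEpiSC (-5.23 ± 0.40, adjusted p = 7.01e-08 in edgeR). Ldha, which makes lactate, was at 688 and 645 CPM in PNT-D1, against 2911 and 2972 CPM in kEpiSC (-2.14 ± 0.20). Pgk1, of lower glycolysis, was at 481 and 459 CPM in PNT-D1, against 2818 and 3047 CPM in kEpiSC (-2.64 ± 0.22). Replicates of each group differed little beside the gap. Gapdh and Pkm, with smaller folds, had the largest losses in CPM: Gapdh was at 5630 and 5744 CPM in PNT-D1, against 9098 and 9702 CPM in kEpiSC (-0.73 ± 0.12), and Pkm averaged 2598 CPM in PNT-D1 and 5996 CPM in kEpiSC. Bnip3, a HIF target that acts in mitophagy, was at 15.0 and 14.4 CPM in PNT-D1, against 288 and 314 CPM in kEpiSC (-4.35 ± 0.60). Vegfa, the angiogenic ligand, was at 14.7 and 16.5 CPM in PNT-D1, against 141 and 176 CPM in kEpiSC (-3.34 ± 0.23). The oxygen sensor genes Egln1 (-3.22 ± 0.30) and Egln3 (-2.82 ± 0.18) fell with them, as did Pdk1 (-3.07 ± 0.42). Hif1a itself was higher (284 CPM in both PNT-D1 libraries, against 200.0 and 188 CPM in kEpiSC, 0.55 ± 0.10). Pfkfb4, a regulator of glycolytic flux, was the exception in its list, at 21.1 and 17.4 CPM in PNT-D1, against 3.56 and 4.02 CPM in kEpiSC (2.34 ± 0.24). Genes of the respiratory chain showed no such fall (1 of 24 higher, 4 lower, median -0.05). Oxygen, density and the depletion of medium at harvest are not known here, and their part in these values was not tested.

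A set of 3 promoters of these lists are shown with the core of the HIF element, ACGTG, in capitals on either strand (CACGT is its reverse complement, and CACGTG, an E-box, holds both). They are given 5′ to 3′ in the sense of the gene, from RefSeq on GRCm38. The windows of Pgk1 and Bnip3 lie upstream of the annotated gene, and that of Slc16a3 lies before a RefSeq start but inside the span annotated for the gene: Slc16a3 at chr11:120949013-120949066 (plus strand), Pgk1 at chrX:106186929-106187013 (plus strand) and Bnip3 at chr7:138909569-138909653 (minus strand).
Slc16a3: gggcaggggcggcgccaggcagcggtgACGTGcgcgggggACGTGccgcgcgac
Pgk1: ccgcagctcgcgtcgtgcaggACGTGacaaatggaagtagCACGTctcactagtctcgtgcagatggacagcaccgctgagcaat
Bnip3: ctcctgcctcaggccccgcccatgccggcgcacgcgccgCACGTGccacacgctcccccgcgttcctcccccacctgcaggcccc
The letters ACGTG occurred in the 250 bases before the start of 12 of 17 HIF targets (70.6%) and 11 of 21 glycolysis genes (52.4%), against 24.4% of the tested genes and 18.5% of all promoters. The pattern is short and also lies within E-boxes, so this is a description of the sequences.

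Targets of ATF4, the factor of the amino acid response, were lower in 18 of 20 cases with none higher (median -1.66). Trib3, a pseudokinase of that response, fell to 1.37 and 2.25 CPM in PNT-D1, against 74.5 and 89.4 CPM in kEpiSC (-5.48 ± 0.35). Chac1, which breaks down glutathione, was at 2.37 and 1.66 CPM in PNT-D1, against 62.6 and 75.8 CPM in kEpiSC (-5.09 ± 0.78). Slc7a3, a transporter of arginine and lysine, was at 13.9 and 11.8 CPM in PNT-D1, against 405 and 427 CPM in kEpiSC (-5.01 ± 0.53). Atf4 itself was at 250 and 210 CPM in PNT-D1, against 514 and 448 CPM in kEpiSC (-1.06 ± 0.15). Slc7a11 (0.02 ± 0.40) and Atf5 (-0.78 ± 0.34, adjusted p = 0.070 in edgeR) were not called, although Atf5 was lower in 4 of 14 alternatives. Genes of the unfolded protein response did not follow (6 of 16 higher, 4 lower, median 0.16). One target, Pycr1 of proline synthesis (-2.83 ± 0.18), held the composite C/EBP-ATF pattern TGATGNAAT, shown in capitals at chr11:120643803-120643891 (GRCm38, minus strand, RefSeq), upstream of the first exon.
Pycr1: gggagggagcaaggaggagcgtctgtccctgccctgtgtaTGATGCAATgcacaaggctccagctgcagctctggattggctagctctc
It was the only 1 of 17 ATF4 targets with that pattern in this window (5.9%), against 0.5% of the tested genes.

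Cytoskeletal target genes were more often lower than higher. Targets of YAP and TEAD, which respond to density and adhesion, were lower in 10 of 16 cases and higher in 1 (median -1.17). Targets of SRF and its actin-sensing cofactors were lower in 12 of 20 and higher in 3 (median -0.70). The 3 higher ones were Zyx (1.16), Fhl2 (1.05) and Actb (0.39). Ccn2, a matricellular protein gene that belongs to both lists, fell to 9.25 and 9.71 CPM in PNT-D1, against 199 and 212 CPM in kEpiSC (-4.44 ± 0.41). Cnn1, calponin, was at 1.25 and 0.95 CPM in PNT-D1, against 14.1 and 16.8 CPM in kEpiSC (-3.80 ± 0.49). Ajuba, a LIM protein, fell by 2.56 on the log2 scale, and Nt5e, an ecto-nucleotidase, was the one YAP target that rose, to 167 and 188 CPM in PNT-D1, against 29.4 and 25.3 CPM in kEpiSC (2.70 ± 0.26).

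Immediate early genes, which respond to growth factors within minutes, were divided: 10 of 17 were higher and 5 lower (median 1.07). Fos was at 372 and 208 CPM in PNT-D1, against 4.16 and 5.57 CPM in kEpiSC (5.89 ± 0.59, adjusted p = 1.06e-06 in edgeR). Fosb was at 71.5 and 62.4 CPM in PNT-D1, against 0.20 and 0.34 CPM in kEpiSC (7.89 ± 1.02). Egr1 was at 802 and 518 CPM in PNT-D1, against 52.1 and 68.4 CPM in kEpiSC (3.45 ± 0.44). PNT-D1 replicate 1 was the higher of its pair for all 3, yet the groups stayed far apart. Jun, the partner of Fos in AP-1, did not rise: it was at 38 and 52.7 CPM in PNT-D1, against 55.8 and 69.6 CPM in kEpiSC (-0.47 ± 0.41, adjusted p = 0.37 in edgeR), and was called lower in 2 of 14 alternatives. Of 17 AP-1 genes 6 were higher and 5 lower, where 23.2% and 23.1% of all genes were, and no more is read from the counts. Fos, Fosb, Batf3, Junb, Atf7 and Atf2 were higher, and Jdp2 (-3.21 ± 0.56), Maff (-2.25 ± 0.33), Fosl2, Bach2 and Atf3 were lower. Batf3 (1.46) was not called without kEpiSC replicate 2 (0.87) or without either PNT-D1 library (1.31 to 1.59), and was at 2.48 without kEpiSC replicate 1. Atf3 (-1.29) was not called without kEpiSC replicate 2 (-1.25) or PNT-D1 replicate 2 (-1.06). Myc fell to 32.5 and 24.4 CPM in PNT-D1, against 140 and 121 CPM in kEpiSC (-2.20 ± 0.43).

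Of 21 interferon response genes 12 were higher and 2 lower (median 0.83), and some of the higher ones, such as Irf7 and Ifit1, were near 0 in kEpiSC and could enter the test only where they were expressed. Ifitm1, a membrane protein of the response, had 232 and 201 CPM in PNT-D1, against 18.6 and 13.95 CPM in kEpiSC (3.73 ± 0.18). Irf7, a factor that amplifies the response, was at 8.0 and 9.71 CPM in PNT-D1, against 0.20 and 0.27 CPM in kEpiSC (5.16 ± 0.45). Oas1a, a sensor of double-stranded RNA, was at 21.5 and 20.5 CPM in PNT-D1, against 0.79 and 1.07 CPM in kEpiSC (4.47 ± 0.32). Isg15, a ubiquitin-like modifier, was at 15.5 and 19.7 CPM in PNT-D1, against 2.11 and 2.41 CPM in kEpiSC (2.95 ± 0.24). Ifit1 had 3.87 and 3.08 CPM in PNT-D1, against 0.13 and 0.34 CPM in kEpiSC (3.81 ± 0.57, or 4.55 without kEpiSC replicate 2). Bst2, a membrane protein that tethers virus particles, went the other way (-1.87 ± 0.31). Oas and Ifit genes have close relatives, and how reads were split among them is uncertain. The interferon-stimulated response element, searched as TTTC, any 2 bases and TTTC on both strands, is in capitals in 2 of their promoters (RefSeq, GRCm38, upstream of the first exon), Ifit1 at chr19:34640764-34640853 (plus strand) and Isg15 at chr4:156200835-156200924 (minus strand).
Ifit1: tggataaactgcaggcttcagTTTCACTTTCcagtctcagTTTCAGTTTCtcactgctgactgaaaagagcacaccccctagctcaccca
Isg15: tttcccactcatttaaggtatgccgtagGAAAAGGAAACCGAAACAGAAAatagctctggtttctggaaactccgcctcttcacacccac
It was found before the start of 9 of 20 genes of the list (45%), against 3.0% of the tested genes and 3.5% of all promoters.

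Among single genes, the largest gain in CPM was that of Sprr2a2, of a family of epithelial barrier proteins, with 4440 and 5922 CPM in PNT-D1, against 35.4 and 29.6 CPM in kEpiSC (7.32 ± 0.28). Its close relative Sprr2a3 had 387 and 552 CPM in PNT-D1, against 1.39 and 1.07 CPM in kEpiSC, and reads of the pair cannot be assigned with certainty. Grsf1, an RNA-binding protein of mitochondria, was at 1744 and 1815 CPM in PNT-D1, against 106 and 108 CPM in kEpiSC (4.05 ± 0.18). S100a11, a calcium-binding protein, rose by 3.02 ± 0.14 and the imprinted gene Peg3 by 2.20 ± 0.13. On the other side Pim2, a serine/threonine kinase, fell to 22.2 and 21.2 CPM in PNT-D1, against 1496 and 1662 CPM in kEpiSC (-6.18 ± 0.20, adjusted p = 1.61e-11 in edgeR). Shisa6, a gene mainly known from synapses, fell to 0.62 and 0.83 CPM in PNT-D1, against 48.5 and 60.6 CPM in kEpiSC (-6.19 ± 0.52). Sez6, Rgs11 and Sncb, also of neurons, each had 2 counts in PNT-D1, with ratios of kEpiSC over PNT-D1 of 156 (95% counting interval 43.0 to 1293), 147 (40.5 to 1216) and 113 (31.15 to 938). Both counts of Sez6 were in PNT-D1 replicate 2, so its size rests on that library.

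The later days show which of these levels were transient. T averaged 1574 CPM on PNT-D1, 284 CPM on PNT-D2 and 115 CPM on PNT-D3, from 43.2 CPM in kEpiSC. Wnt3a averaged 142, 22.2 and 1.70 CPM on the 3 days and Evx1 219, 49.4 and 10.6 CPM, so these peaked at the first sampled day. Sprr2a2 did the same, with 5181, 600 and 104 CPM. Hoxb9 instead averaged 68.4, 248 and 292 CPM, Hoxa9 3.62, 69.1 and 100.5 CPM and Stra6 39.4, 269 and 324 CPM, so the first day caught them on the way up. Slc16a3 was lowest on day 1, with 21.8, 266 and 131 CPM, whereas Trib3 stayed down with 1.81, 1.15 and 1.35 CPM. Otx2 averaged 1.22, 0.93 and 0.32 CPM, and Pou5f1 512, 118 and 22.7 CPM. In kiPSC, T was at 0.60 CPM, Evx1 at 0.32 CPM and Pou5f1 at 1128 CPM. None of these later differences was tested here.

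**Figure D5:**
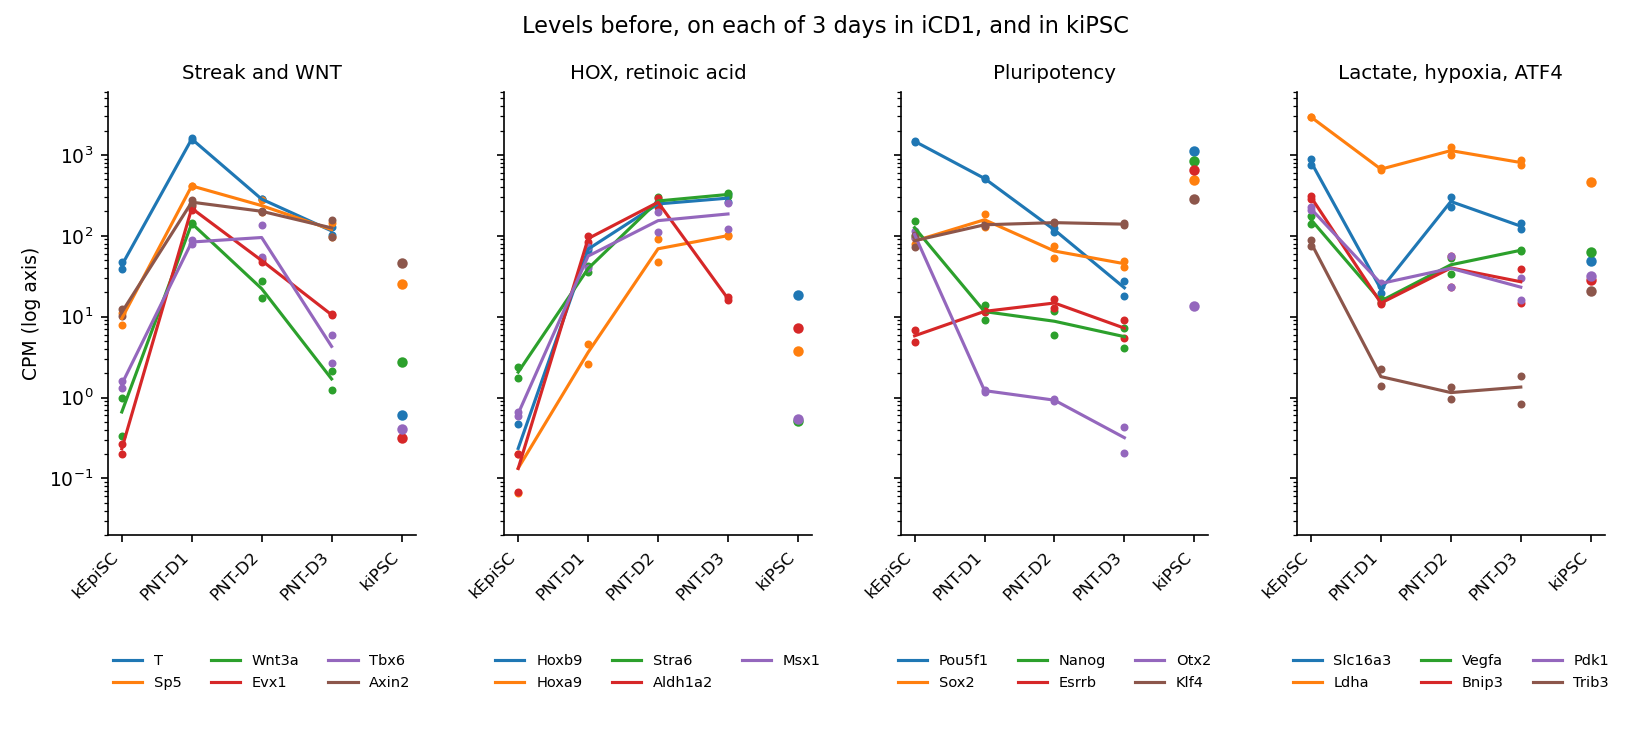
Levels (CPM, logarithmic axis) of 23 genes in kEpiSC, on PNT days 1, 2 and 3 and in kiPSC, in 4 panels by function; small points are libraries, lines join group means, and the point at the right is the kiPSC mean. T, Sp5, Wnt3a and Evx1 peak on day 1 while Hoxb9 and Stra6 climb to day 3, and Slc16a3 dips to 21.8 CPM on day 1 and stands at 266 CPM on day 2.

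With SP600125, which blocks JNK, the stress kinase that phosphorylates Jun, the libraries of day 1 are given side by side with those without it. They are set beside the same kEpiSC libraries, so the 2 comparisons are not independent. The mean difference from kEpiSC of log2 CPM (with 0.5 CPM added) over the WNT targets was 2.98 in PNT-JNKi-D1 and 3.16 in PNT-D1. For HIF targets it was -2.46 and -2.47, for primed genes -1.23 and -1.40, for core factors -0.76 and -1.0, and for NODAL genes -0.44 (replicates -0.20 and -0.68) and -0.78. T was at 1624 and 1786 CPM with the inhibitor, against 1542 and 1606 CPM without it, and Slc16a3 at 23.0 and 34.0 CPM, against 19.9 and 23.8 CPM. PNT-JNKi-D1 replicate 1 differed from its pair at several genes: Fgf5 was at 6.37 and 0.87 CPM in its 2 libraries, Tdgf1 at 26.8 and 7.46 CPM, and Hoxb9 at 19.55 and 54.2 CPM, against 66.9 and 70.0 CPM in PNT-D1. The effect of the inhibitor was not tested here.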

How the data were processed

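RNA-seq libraries were prepared with a TruSeq kit and run on an Illumina NextSeq per the labels. A VAHTS mRNA-seq kit is given instead in the published methods. The authors aligned reads to mm10 with Bowtie2 and obtained expected counts per gene with RSEM (versions not given in the sources used here), and deposited these beside TPM, in which RSEM scales counts by effective length. Expected counts that are not whole (23.36 to 24.64% of the values in the 4 libraries) were rounded. Read strand is not stated. The table held 29267 genes, of which 28756 had a symbol.

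PNT-D1 was compared with kEpiSC in edgeR 4.0.16 (R 4.3.3) by the quasi-likelihood F test, with TMM scaling, filterByExpr at a count minimum of 10 and one fit over 17 libraries (kEpiSC, PNT days 1 to 3 with and without SP600125, kiPSC). It had 9 residual degrees of freedom and a common biological coefficient of variation of 0.142. ESC against EpiSC was fitted apart on 9 libraries. Standard errors are the absolute log2 fold change over the root of F. P-values were adjusted over all genes by the Benjamini-Hochberg method. Where a group had no count, a bound with 3 counts over the group is given, and with 1 to 3 counts an exact 95% interval that covers counting error alone. Tested on simulated counts for this comparison (14026 genes), a 1.5-fold change was detected in 15.9% of genes given it, a 2-fold change in 62.3% and a 4-fold change in 96.8%, against calls in 0.065% of the unchanged. Few genes were changed there (67, 67 and 66), and all genes shared the common coefficient of variation. In the data 46.3% of genes were called, so these rates may not hold for them.

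The rule for named genes took fixed core and naive genes, up to 4 called members of each list with the largest change, and the genes with the largest change in fold or in CPM. Not all of these are described, and further list members (Sp5, Axin2, Evx1, Tbx6, Ldha, Isg15 and others) were chosen after their values were seen. Members and lists were chosen with earlier results of these data known. Alternatives were other scaling, filters, DESeq2 1.42.0, limma 3.58.1 on log2 TPM, other sets of libraries, a replicate block and leaving out each library. Promoters came from RefSeq (GRCm38). Some members of the lists are not reported here.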

Additional observations from a re-analysis of the deposited data

How the results depend on the processing

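The count of 6893 called genes was 6896 with RLE factors, 6609 in DESeq2, 7135 without a filter, 6950 at 1 CPM, 7859 with kEpiSC and the PNT days alone, 8946 with the 4 libraries alone and 4887 with all 38. Leaving out one library gave 4733 to 5231 calls, with 2393 to 2617 higher and 2332 to 2614 lower. Limma on log2(TPM + 0.1) moved the split, with 3550 higher and 2187 lower (61.9% higher, against 50.2%). The median of all genes was 0.10 there, and the cause was not tested. With a pseudocount of 1 it was 59.7%. ESC against EpiSC had 5699 calls, 8691 with all 38 libraries in the fit, and 4717 to 6159 with one library left out. The replicate block gave 7077 calls for PNT-D1 against kEpiSC and 5333 for ESC against EpiSC. The numbers do not pair the day 1 and kEpiSC libraries (correlation of deviations -0.02 over 14892 genes).

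Of 306 genes tested by name, 284 were called and 222 kept their call in all 14 alternatives, and 0 changed direction while called. Klf4 and Sox2 lost theirs with all 38 libraries (adjusted p = 0.071 and 0.12 in edgeR). With 2 libraries a group, changes under 2-fold were often missed in the simulated counts, and levels under about 1 CPM rest on few counts.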

Other observations

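Mitotic genes were lower in 17 of 19 cases with none higher, by small amounts (median -0.67). Cdc20, an activator of the anaphase-promoting complex, was at 312 and 277 CPM in PNT-D1, against 485 and 470.2 CPM in kEpiSC (-0.70 ± 0.13), and Plk1, a mitotic kinase, fell by 0.64 on the log2 scale. Genes of DNA replication did not follow (3 of 22 higher, 6 lower, median -0.12). Genes of cholesterol synthesis and uptake were lower in 15 of 24 cases and higher in 3. Hmgcs1, at the head of the pathway, was at 500.2 and 428 CPM in PNT-D1, against 898 and 913 CPM in kEpiSC (-0.96 ± 0.17).

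The TET enzymes, which oxidize methylated cytosine, changed in opposite directions. Tet1 was at 79.3 and 79.9 CPM in PNT-D1, against 271 and 280.3 CPM in kEpiSC (-1.79 ± 0.14). Tet2 fell as well (-1.61 ± 0.25), and Tet3 was at 205 and 181 CPM in PNT-D1, against 35.7 and 29.4 CPM in kEpiSC (2.56 ± 0.16). The converted kiPSC averaged 434 CPM of Tet1 and 25.7 CPM of Tet3. Low transcript of the Zscan4 family, which marks a rare state of ESC, appeared on the first day: Zscan4f had 22 counts in PNT-D1 and 0 in kEpiSC, at least 13.4-fold higher, and reads are shared among its close copies.

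Among BMP genes 8 of 17 were higher and 5 lower (median 0.75), where 23.2% and 23.1% of all genes were. The homeobox gene Msx1 was at 40.5 and 71.8 CPM in PNT-D1, against 0.59 and 0.67 CPM in kEpiSC (6.44 ± 0.83). Cdh5, a cadherin of endothelium, was at 27.7 and 40.6 CPM in PNT-D1, against 0.40 and 0.27 CPM in kEpiSC (6.62 ± 0.52), whereas Kdr, the VEGF receptor of that lineage, was not called (0.75 and 0.47 CPM in PNT-D1, against 1.06 and 0.54 CPM in kEpiSC). Cyp1a1, a target of the aryl hydrocarbon receptor, differed within the pair, with 12.1 and 3.43 CPM in PNT-D1, against 0.40 CPM in each kEpiSC library (4.23 ± 0.86, 3.06 without PNT-D1 replicate 1 and 4.87 without replicate 2). The metallothionein gene Mt1 fell to 32.1 and 13.9 CPM in PNT-D1, against 118 and 107 CPM in kEpiSC (-2.29 ± 0.41, or -3.02 without PNT-D1 replicate 1).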
